A study of Danio rerio with 20 samples.

Results

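The miR-148 and miR-152 family was represented by 2 of the 219 mature zebrafish microRNA probes on the arrays, dre-miR-152 and dre-miR-148, taken by exact probe name; both were among the 167 probes bright enough to be tested. The pair was chosen by measured values: an earlier look at these data had called miR-152 lower in dystrophin mutants at 30 days post fertilisation (dpf), so the mutant differences at 30 dpf are given below as descriptions with no test. Differences of miR-148 that involve 5 dpf are also given without a test, because it was above background in 1 of 8 samples at that age and entered the tested probes through the 30 dpf groups. The study profiled microRNAs in whole zebrafish of 4 genotypes, all of the TL strain, with 3 samples of each genotype at 30 dpf and 2 of each at 5 dpf, 20 samples in all. The genotypes were sapje-like with its wild type, called SLW, and sapje with its wild type, called SW; sapje and sapje-like are dystrophin mutant lines that lose muscle fibres as larvae. The labels record 10 fish per cohort, a shrimp diet and total RNA of whole fish, and do not give the alleles, whether the mutants were homozygous, or whether replicates came from separate sets of fish. P-values therefore measure the spread between these samples, which may be technical. In whole-fish RNA, fewer cells that make a microRNA and less of it per cell cannot be told apart.

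MicroRNAs are short RNAs that guide Argonaute proteins to partly complementary sites in messenger RNAs, and the bases near the 5′ end, the seed, carry most of the pairing. In mammals the miR-148 and miR-152 family is known for targeting DNA methyltransferase messages. Mouse miR-148a has been reported to promote myogenic differentiation, and mammalian miR-148a is abundant in liver.

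Both probes target 22-base microRNAs, printed here from the deposited array files, 5′ to 3′, with the seed (bases 2 to 8) in capitals, because the shared seed is what makes the pair a family.
dre-miR-152: uCAGUGCAugacagaacuuugg
dre-miR-148: uCAGUGCAuuacagaacuuugu
The sequences were identical at 20 of 22 positions and differed at U10G and U22G, where the base of miR-148 comes first, the base of miR-152 last, and positions are counted from the 5′ end. No other mature probe carried CAGUGCA at bases 2 to 8, whereas 6 probes, miR-130a, b and c and miR-301a, b and c, carried it at bases 1 to 7, one base nearer the 5′ end. One of each is shown for comparison with that 7-base run in capitals.
dre-miR-130a: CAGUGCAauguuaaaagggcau
dre-miR-301a: CAGUGCAauaguauugucaaag
The closest other 22-base probe had 11 mismatches to either family member. How far the miR-148 and miR-152 probes each capture the other microRNA was not tested. In the GRCz12tu annotation the mir-152 gene lies within the span of copz2 on chromosome 3, and mir-148 within the span of hnrnpa3 on chromosome 9, both protein-coding genes.

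Each sample was read in 1 dye, Cy3 or Cy5, with 12 spots per mature probe. Between 105 and 173 mature probes per sample exceeded background, here the median of empty spots plus 3 robust standard deviations. Empty spots had medians between 282 and 572 raw intensity units in Cy3 samples and between 32.4 and 47.3 in Cy5 samples, so the dye was kept as a term in the fit. Levels are given as quantile-normalised log2 intensity of a probe, which can be compared between samples and not between probes. Because quantile normalisation sets the value by rank, samples in which a probe held the same rank have the same value. The number of samples limits the precision.

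miR-152 was above background in 20 of 20 samples. In sapje-like replicate 3 at 30 dpf its raw mean was 467 against a threshold of 455, so its value there was near the floor. At 30 dpf its normalised log2 intensity was 8.79, 8.25 and 7.90 in sapje-like fish, against 10.76, 9.96 and 9.45 in wild type SLW. It was 8.82, 9.50 and 9.55 in sapje fish, against 10.76, 9.96 and 9.55 in wild type SW. Each sapje-like sample lay below each SLW sample, while the sapje and SW samples touched, with 1 mutant and 1 wild type at the same value. Over both lines the mutants averaged 8.80 ± 0.66 and the wild types 10.07 ± 0.57 (SD, n = 6 each), and the groups overlapped between 9.45 and 9.55. Among the 219 mature probes miR-152 ranked 61 to 104 by brightness in the mutants and 40 to 63 in the wild types. In the authors' deposited value table it stood at 123 to 630 in the mutants and at 584 to 1425 in the wild types.

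miR-148, the dimmer probe of the pair, was above background in 10 of 12 samples at 30 dpf, and the samples below it were sapje-like replicates 2 and 3. Other dim probes were also detected less in those samples. Of the 5 probes of the nervous system list used below, 3 and 1 were above background there, against 5 in each other 30 dpf sample. The normalised log2 intensity of miR-148 was 6.998, 6.67 and 6.59 in sapje-like fish, against 8.22, 7.93 and 7.23 in wild type SLW. It was 7.10, 7.51 and 7.10 in sapje fish, against 8.12, 7.66 and 6.86 in wild type SW. The sapje-like samples all lay below the SLW samples; among sapje and SW samples the lowest value was a wild type. Over both lines the mutants averaged 6.995 ± 0.33 and the wild types 7.67 ± 0.53 (SD, n = 6 each).

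**Figure D1:**
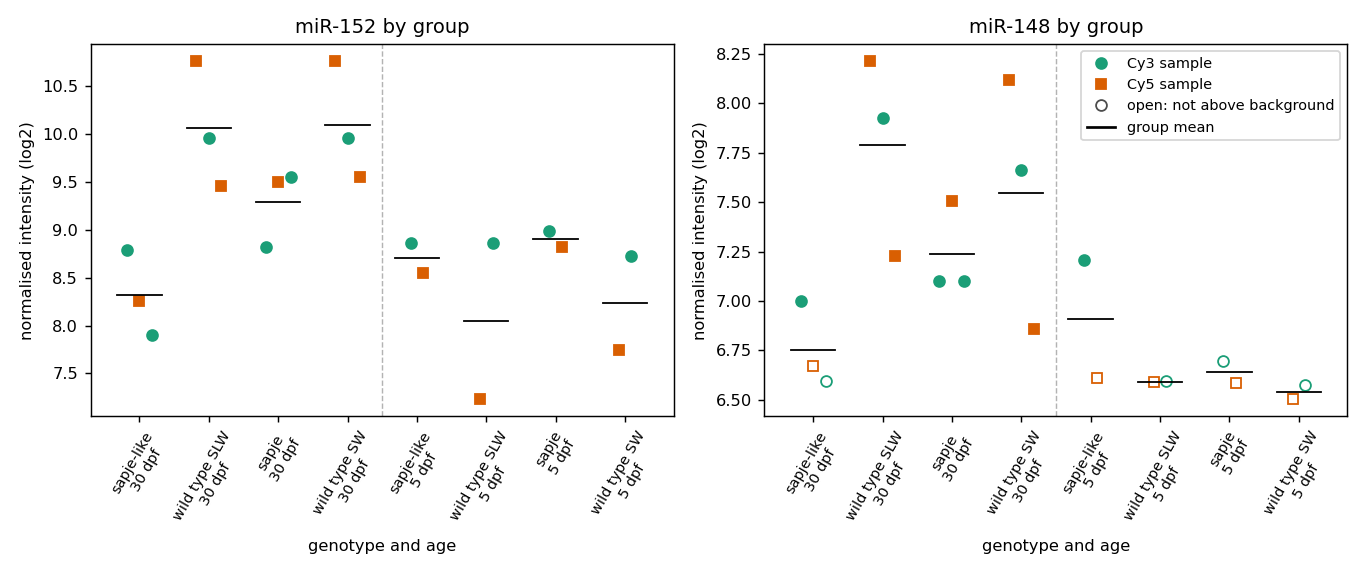
Normalised log2 intensity (vertical axes) of miR-152 (left) and miR-148 (right) in each of the 20 samples, by genotype and age, each mutant left of its wild type; circles are Cy3 samples, squares Cy5 samples, open symbols samples in which the probe was not above background, and lines group means. At 30 dpf the 3 sapje-like samples lie below the 3 SLW samples for both microRNAs, and at 5 dpf miR-148 is above background in 1 of 8 samples.

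In the fit over all 20 samples with a dye term, the difference of miR-152 at 30 dpf between the 2 mutants joined and their wild types was -1.36 ± 0.33 (SE) log2 units, or 2.56-fold lower in the mutants. By line the difference was -1.83 ± 0.46 in sapje-like against SLW and -0.88 ± 0.46 in sapje against SW, and the sapje value was -0.52 without wild type SW replicate 2. For miR-148 the joint difference was -0.71 ± 0.22, with -1.07 ± 0.31 in sapje-like against SLW and -0.34 ± 0.31 in sapje against SW. The sapje value for miR-148 too rested on single libraries: it was -0.05 without wild type SW replicate 2, -0.66 without wild type SW replicate 4 and 0.016 among Cy5 samples alone. For orientation, 13.2% of the 167 tested probes were called in the joint contrast at an adjusted p under 0.05 (5.39% higher and 7.78% lower), 8.98% in sapje-like against SLW and 1.2% in sapje against SW. The median difference of all tested probes in the joint contrast was -0.06. These shares are background to the contrast by which miR-152 was picked, and nothing is read from them here.

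The sapje-like difference minus the sapje difference at 30 dpf was -0.95 ± 0.64 for miR-152 (95% interval -2.32 to 0.43) and -0.73 ± 0.43 for miR-148 (-1.65 to 0.20). Both intervals include 0, and as these values come from the samples by which miR-152 was picked, they are given without a test.

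Within one dye at 30 dpf, miR-152 averaged 8.77 in 4 mutant samples and 9.96 in 2 wild type samples read in Cy3, with no overlap. In Cy5 it averaged 8.88 in 2 mutant samples and 10.13 in 4 wild type samples, and the groups overlapped. The corresponding differences were -1.19 and -1.26, taken from the same 30 dpf samples as the joint estimate. For miR-148 the difference was -0.85 in Cy3 and -0.52 in Cy5.

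The array on which each sample was hybridised was inferred from the spot-to-spot residuals of 45 bright probes, and 10 arrays resulted, each with a mutant and the wild type of the same line and age. Partners were sought only among samples of the opposite dye and, with fewer and brighter probes, were not all mutual best matches. Array partners correlated at 0.43 to 0.85 over 540 spots. This grouping comes from the data and not from the labels. At 30 dpf the mutant minus wild type difference of miR-152 within an array was -1.98, -1.70 and -1.55 in the sapje-like line, and -1.94, -0.46 and 0 in the sapje line. miR-152 was thus lower in the mutant on 5 of 6 arrays and tied on 1. These arrays hold the 30 dpf samples by which miR-152 was picked, so the count is a description and not separate support. miR-148 was lower in the mutant on 5 of 6 arrays, with differences from -1.26 to 0.24. At 5 dpf the difference of miR-152 ranged from -0.32 to 1.63 and was higher in the mutant on 3 of 4 arrays; that of miR-148 ranged from 0.013 to 0.61, with 3 of the 4 arrays holding no sample in which miR-148 was above background.

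**Figure D2:**
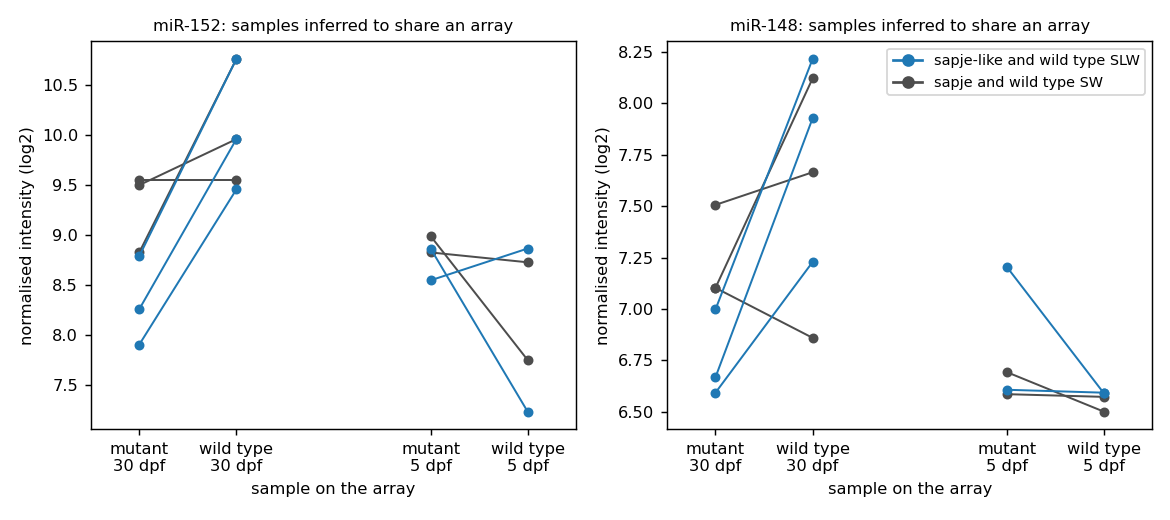
Normalised log2 intensity (vertical axes) of miR-152 (left) and miR-148 (right), each line joining the mutant and the wild type inferred to share an array, at 30 and 5 dpf; blue is sapje-like with SLW, grey sapje with SW. At 30 dpf the mutant is the lower on 5 of 6 arrays for each microRNA, in the samples by which miR-152 was picked.

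At 5 dpf, an age that played no part in choosing the pair, miR-152 had normalised log2 intensities of 8.86 and 8.54 in sapje-like fish, against 7.23 and 8.86 in wild type SLW. It had 8.99 and 8.82 in sapje fish, against 7.75 and 8.73 in wild type SW. The 4 mutant samples lay close together, and the wild types were spread more widely, with 1 low Cy5 sample in each line. The mutants averaged 8.80 ± 0.19 and the wild types 8.14 ± 0.79 (SD, n = 4 each). The joint difference was 0.66 ± 0.39 (95% interval -0.18 to 1.51) and did not pass the test (limma, adjusted p = 0.583). By line it was 0.66 ± 0.55 in sapje-like against SLW (limma, adjusted p = 0.848) and 0.67 ± 0.55 in sapje against SW (limma, adjusted p = 0.633). Those estimates leaned on the low wild types: without SLW replicate 1 the joint difference was 0.28 and the sapje-like difference -0.12, without SLW replicate 2 they were 1.05 and 1.43, and without SW replicate 1 the sapje difference was 0.26 and without SW replicate 2 it was 1.08. Within Cy3 the mutant minus wild type difference of miR-152 was 0.13, and within Cy5 it was 1.197. At 5 dpf 1.2% of tested probes were called in the joint contrast, 0.599% in sapje-like and 1.8% in sapje.

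miR-148 at 5 dpf was above background in 1 of 8 samples, sapje-like replicate 1, so that its differences there compare values near the floor of the measurement. Its normalised log2 intensity was 7.20 and 6.61 in sapje-like fish, against 6.59 and 6.59 in wild type SLW. It was 6.69 and 6.59 in sapje fish, against 6.501 and 6.57 in wild type SW. The 7 samples below background spanned less than the gap between the bright sample and the next. The joint difference was 0.21 ± 0.26, and no fold is given because most of these values are below background.

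miR-152 was higher at 30 dpf than at 5 dpf when the 4 genotypes were averaged, with mutants and wild types weighted equally. The mutant difference was unlike at the ages, 0.66 at 5 dpf and -1.36 at 30 dpf, so it enters this average and does not cancel. The 30 dpf samples in it are also those by which miR-152 was picked. The age difference was 0.97 ± 0.25 log2 units, or 1.95-fold (limma, adjusted p = 0.00412). Because of those 30 dpf samples, this p-value is a description and not an independent test. The call held in each of the 8 alternatives run, with differences from 0.87 to 1.31, but these reuse the same samples and are not separate support. Age changed much of the array: 60.5% of the 167 probes were called, 30.5% higher and 29.9% lower, and the median difference of all tested probes was 0.02, so being called with age did not single miR-152 out. For miR-148 the fitted difference was 0.66 ± 0.17 log2 units, set against 5 dpf values mostly not above background; it ranged from 0.44 under median scaling to 1.84 in the authors' table.

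The average covered unlike genotypes. For miR-152 the group means at 30 and 5 dpf were 8.31 and 8.70 in sapje-like fish, 9.29 and 8.91 in sapje fish, 10.06 and 8.05 in wild type SLW, and 10.09 and 8.24 in wild type SW. With the dye term, the difference between 30 and 5 dpf was -0.43 in sapje-like, 0.34 in sapje, 2.05 in SLW and 1.90 in SW. For miR-148 it was -0.17 in sapje-like, 0.58 in sapje, 1.22 in SLW and 1.03 in SW. Since these differences use the 30 dpf samples by which miR-152 was picked, they are given without a test. As miR-148 was not above background at 5 dpf in SLW, SW or sapje fish, the fold between its group means can be given there only as lower bounds. The 30 dpf mean was at least 2.04-fold higher in SLW, at least 1.53-fold in SW and at least 1.42-fold in sapje. The reference was the dimmest probe above background in each 5 dpf sample or the miR-148 value there, whichever was higher. These bounds carry no dye term and no spread and do not describe single samples. In SW, for instance, the 30 dpf samples ran from 6.86 to 8.12.

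**Figure D3:**
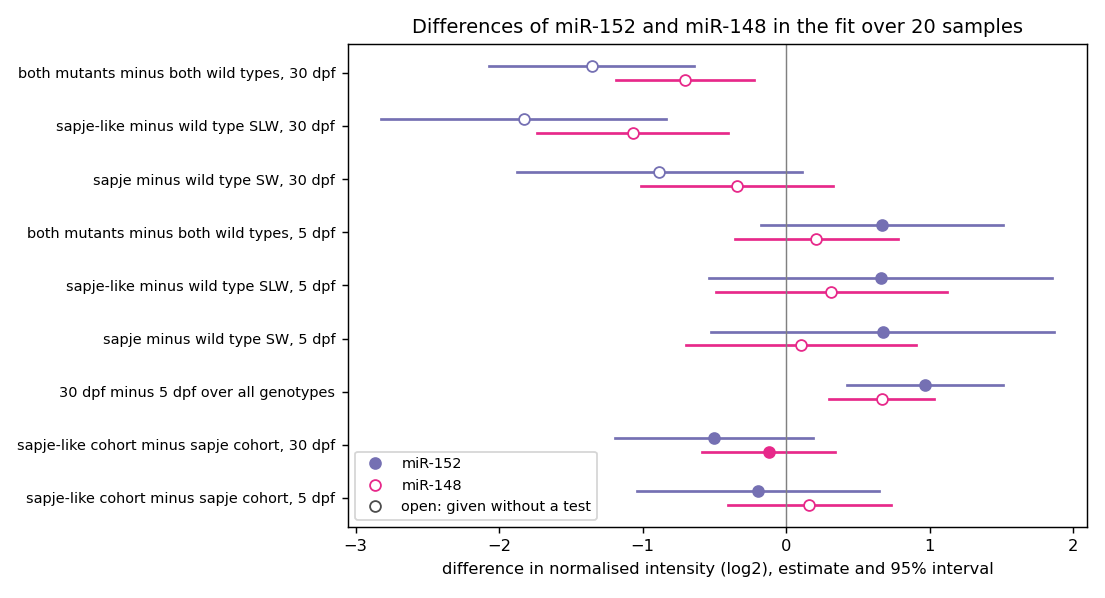
Differences in normalised log2 intensity (horizontal axis) of miR-152 and miR-148 in the fit over 20 samples, points with 95% intervals, one row per comparison; open points mark differences given without a test, the 30 dpf mutant differences and those of miR-148 that involve 5 dpf. The miR-152 point stands at -1.36 for both mutants at 30 dpf, 0.66 for both mutants at 5 dpf and 0.97 for age.

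Ordered by level, miR-152 was highest in wild types at 30 dpf and next in sapje fish at 30 dpf, whose highest sample equalled the lowest SW sample and exceeded the lowest SLW sample. Mutants at 5 dpf, sapje-like fish at 30 dpf and wild types at 5 dpf followed, and these had overlapping ranges. The lowest sapje sample at 30 dpf (8.82) also lay within the 5 dpf ranges of mutants (8.54 to 8.99) and wild types (7.23 to 8.86). miR-148 also had its highest samples in wild types at 30 dpf, and its ranges in the other groups overlapped: sapje fish at 30 dpf lay inside the wild type range, and sapje-like replicate 1 at 5 dpf (7.20) exceeded 2 of the 3 sapje samples. The cohorts, each a mutant and its wild type averaged, gave no call for either microRNA where tested: the sapje-like cohort minus the sapje cohort was -0.50 ± 0.32 for miR-152 at 30 dpf (limma, adjusted p = 0.574) and -0.20 ± 0.39 at 5 dpf (adjusted p = 0.935). For miR-148 it was -0.12 ± 0.22 at 30 dpf (limma, adjusted p = 0.942) and 0.16 ± 0.26 at 5 dpf, given without a test. Of the tested probes, 1.2% were called between cohorts at 30 dpf and 4.19% at 5 dpf.

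Probes whose pattern over the 12 samples at 30 dpf was most like that of miR-152, by Pearson correlation of dye-adjusted log2 intensity, were miR-27d (r = 0.964), miR-15b (0.953), miR-27c (0.933), miR-17a (0.932) and miR-20b (0.930); miR-148 came in ninth place (0.913). For miR-148 they were miR-27d (0.946), miR-27c (0.927), miR-152 (0.913), miR-457a (0.892) and miR-181a* (0.879). The 12 points share their genotype groups, so each r includes the difference between mutants and wild types. Over the 8 samples at 5 dpf, the correlation with miR-152 was 0.917 for miR-17a, 0.915 for miR-20b, 0.447 for miR-15b, 0.367 for miR-27d and 0.298 for miR-27c. It was 0.193 for miR-148, whose values there were below background in all but 1 sample. Because these probes were picked by that correlation, their sharing the direction of miR-152 at 30 dpf is not a separate observation. Of the 5 most like miR-152, only miR-15b had no overlap, with 8.99 to 9.96 log2 units in the mutants against 10.13 to 10.996 in the wild types. Its joint difference was -1.18 ± 0.20. The ranges overlapped for miR-27d (7.38 to 8.12 in the mutants, 7.90 to 8.51 in the wild types), miR-27c, miR-17a and miR-20b.

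miR-130, miR-301 and miR-454 were listed because the miR-130 and miR-301 members carry the family's 7 seed bases displaced by one. The filter passed 5 of the 8 listed: miR-130a, b and c, which carry that run, and miR-454a and b, which do not. No miR-301 probe passed. In the mutants at 30 dpf 0 of those 5 were called, beside 13.2% of all tested probes. The median difference of the 5 was -0.01, beside -0.06 over all tested probes. With age, 4 of the 5 were lower at 30 dpf, beside 29.9% of all tested probes. The difference was -1.44 ± 0.17 for miR-130b, -1.38 ± 0.13 for miR-130c, -0.61 ± 0.09 for miR-454a and -2.02 ± 0.19 for miR-454b (limma, adjusted p between 4.16e-07 and 4.87e-05). miR-130a differed by 0.04 ± 0.09 (limma, adjusted p = 0.675). The median of the 5 with age was -1.38, opposite in sign to both miR-152 and miR-148.

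Of 14 microRNAs reported in mouse to act in myogenic differentiation, 13 were tested, among them all 6 of the striated muscle list below. The median difference of the 13 in the joint mutant contrast at 30 dpf was -0.49. Beside 7.78% lower and 5.39% higher over all tested probes, 3 were lower and 0 higher in that contrast. They were miR-499, carried within a myosin gene (-1.34 ± 0.31, limma adjusted p = 0.0141), miR-1, an abundant striated muscle microRNA (-0.68 ± 0.19, adjusted p = 0.0287), and miR-27b, reported in mouse to target Pax3 in muscle progenitors (-0.63 ± 0.18, adjusted p = 0.0344). The list was chosen with earlier results of these data known, so these calls and p-values are descriptions and not independent tests. In the same list with age, 4 of 13 were higher and 1 lower, beside 30.5% higher and 29.9% lower over all tested probes. Of miR-29a and miR-29b, reported in mammals to target DNA methyltransferases, only miR-29a was tested, and it differed by -0.02 in the joint mutant contrast.

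The whole-fish samples carried microRNAs of all the tissues listed, and at 30 dpf 3 of the 7 tissue lists had members called between mutants and wild types. Over all 167 tested probes, 5.39% were higher and 7.78% lower in the joint contrast. The lists were chosen with earlier results of these data known, so calls and p-values from them are descriptions and not independent tests. The gut and liver list (miR-122, miR-192, miR-194a and miR-194b) had a mean log2 level of 9.16 to 12.16 in the 6 mutant samples and 7.17 to 11.85 in the 6 wild type samples, and 3 of 4 were higher in the joint contrast (median difference 3.55). The striated muscle list (miR-1, miR-133a, b and c, miR-206 and miR-499) had a mean level of 10.95 to 11.84 in mutants and 10.96 to 12.63 in wild types. The lowest wild type was SLW replicate 8 (10.96), and the other wild types, at 12.16 to 12.63, lay above all mutants. In this list 2 of 6, miR-1 and miR-499 as named above, were lower (median -0.60) and 0 higher. Of the erythroid list, miR-144 and miR-451, only miR-451 was tested, and it was lower in the mutants (difference -1.07 ± 0.28, limma adjusted p = 0.0220). The pancreas, nervous system, smooth muscle and vessel, and epithelial lists had no member called in that contrast. Among sapje samples, the one with the highest gut and liver level, replicate 1 (11.91), had the lowest miR-152 (8.82). Among wild types, SLW replicate 8 stood apart, with a gut and liver level of 11.85 against 7.17 to 7.40 in the other wild types, and it had the lowest wild type miR-152 (9.45). That value was above those of the 3 sapje-like samples, whose gut and liver levels were 11.59 to 12.16. Among those sapje-like samples the order ran the other way. Replicate 1 had the highest gut and liver level (12.16) and the highest miR-152 (8.79), and replicate 3 the lowest of both (11.59 and 7.90). Without that wild type sample the miR-152 difference was -2.08 in sapje-like against SLW, and in the joint contrast the calls were 4 of 4 higher in the gut and liver list, 4 of 6 lower in the striated muscle list, 2 of 5 higher in the pancreas list and 6 of 13 lower in the myogenic list, a setting added after the data were seen. In that setting 42 of all 167 probes were called, against 22 with every sample. At 5 dpf the gut and liver level was 9.55 to 10.78 in the 4 mutant samples and 9.08 to 10.01 in the 4 wild type samples. Both ranges lay above the 7.17 to 7.40 of the 30 dpf wild types other than SLW replicate 8. At 5 dpf sapje replicate 1 had the highest gut and liver level (10.78) and the highest miR-152 (8.99). The lowest gut and liver levels, in SW replicate 1 (9.08) and SLW replicate 1 (9.22), went with the lowest miR-152 values (7.75 and 7.23). The part of tissue content in the miR-152 differences, between mutants and wild types or with age, was not tested.

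**Figure D4:**
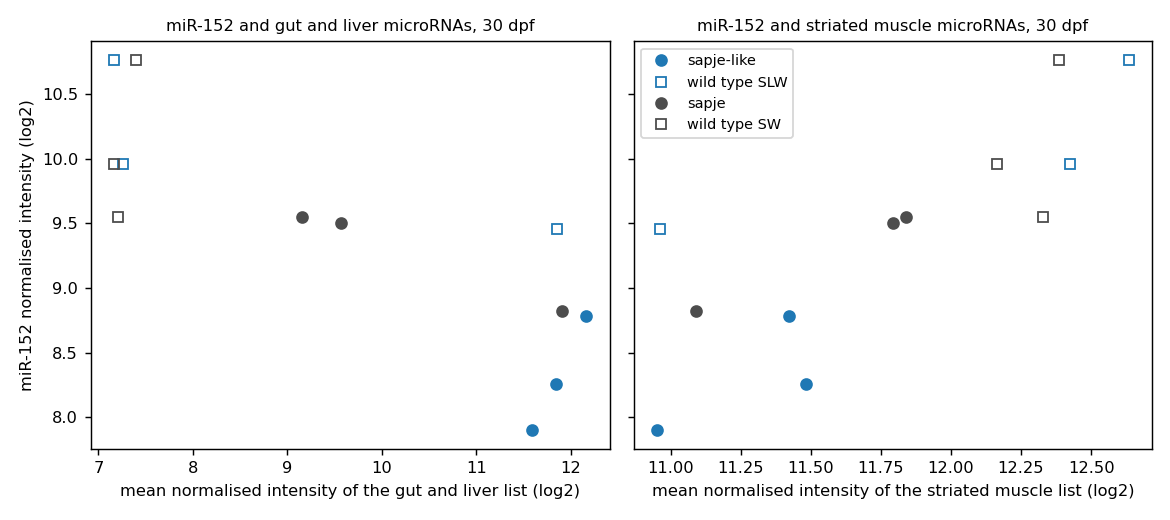
miR-152 normalised log2 intensity (vertical axis) in the 12 samples at 30 dpf against the mean log2 level of the gut and liver list (left) and the striated muscle list (right); filled circles are mutants, open squares wild types, blue the sapje-like line, grey the sapje line. Wild type SLW replicate 8 lies at 11.85 on the gut and liver axis with miR-152 at 9.45, above the 3 sapje-like samples.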

How the data were processed

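Zebrafish whole-fish total RNA was size-fractionated, tailed and hybridised to 2-dye microRNA arrays by a service provider, per the labels' protocols. The deposited spot files hold raw mean spot intensity in 1 dye per sample, and the authors' deposited value table holds processed intensity on a linear scale with normalisation not given in the sources used here (column medians 95.3 to 144; correlation of its log2 values with those computed here 0.946 to 0.970). Intensities of 3968 spots per sample were corrected with normexp (offset 50), taken to log2, averaged over the 12 spots of a probe and quantile-normalised over 219 mature probes with limma 3.58.1 in R 4.3.3. Probes that exceeded background in 2 or more samples of any group (167) were fitted (8 groups and a dye term, lmFit and eBayes, 11 residual degrees of freedom), with Benjamini-Hochberg adjustment over all 167 and a threshold of 0.05. miR-148 passed that filter through the 30 dpf groups; with it above background in 1 of 8 samples at 5 dpf, a planned permutation test of the change of miR-152 minus miR-148 with age is not reported, nor is the planned test of the mutant effects' difference between lines at 30 dpf, which uses the samples that chose miR-152.

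SW was set against sapje and SLW against sapje-like, as the series' design text pairs them. The pair and all lists were chosen with earlier results of these data known. Named probes are the pair, the 5 most alike per member, and list members. Probes sharing a seed were counted from the probe sequences of the array files. The fit was tested on simulated data. Figures were drawn with matplotlib 3.10.9. Alternatives are given at the end.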

Additional observations from a re-analysis of the deposited data

How the results depend on the processing

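miR-152 kept its direction and its side of the threshold in every alternative run for the age comparison (0.87 to 1.31; leaving out each sample, 0.77 to 1.16) and kept its direction for the joint 30 dpf difference (-1.65 to -1.04; leaving out each sample, -1.50 to -1.18), the sapje-like one (leaving out each sample, -2.08 to -1.45) and the sapje one (-1.13 to -0.52, the smallest without SW replicate 2). miR-148 depended more on the setting. Its age difference, 0.66 as reported, was 0.44 under median scaling, 0.63 with empty-spot medians subtracted, 1.84 in the authors' table and 0.59 to 0.75 leaving out each sample. Its sapje difference at 30 dpf was -0.82 in the authors' table, 0.016 within Cy5, and -0.66 to -0.053 leaving out each sample. Its sapje-like difference was -0.79 under cyclic loess, -0.77 under median scaling and -2.57 in the authors' table, and its joint difference -1.69 in that table; the cause was not tested. With median scaling, all probes together had a median age difference of -0.33, and relative to it miR-152 stood at 1.300 and miR-148 at 0.77; that scaling called 38 probes higher and 72 lower, against 51 and 50. In the authors' table the median of the joint 30 dpf contrast was -0.19, and relative to it miR-152 stood at -1.43 and miR-148 at -1.50. Same-numbered samples did not deviate together throughout (correlations of deviations -0.44 to 0.21), so replicate numbers were not taken as pairs. With the replicate block (consensus correlation 0.319) called probes in the joint 30 dpf contrast numbered 34, against 22, in sapje-like 28, against 15, and in sapje 4, against 2. With the inferred array as a block the sapje-like and sapje counts were 24 and 4; cyclic loess gave 0 in both, and fitting only that age gave 8 joint, 2 sapje-like and 1 sapje. Leaving out each sample gave 12 to 42 joint, 0 to 34 sapje-like (34 without SLW replicate 8) and 0 to 8 sapje. In the 5 dpf mutant contrasts, main counts of 2, 1 and 3 (joint, sapje-like, sapje) lay at 0 to 5, 0 to 10 and 0 to 7 over alternatives, and the cohort counts of 7 at 5 dpf and 2 at 30 dpf at 0 to 18 and 0 to 13; the difference of mutant effects at 5 dpf gave 1, with 0 to 3. Signal over background limits miR-148 at 5 dpf.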
